A study of Mus musculus with 6 samples.

Results

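Heat shock chaperones bind unfolded or misfolded proteins and help them to fold, to be transported or to be degraded. In the cytosol, HSP70 proteins work in cycles of ATP with J-domain partners that deliver clients and with exchange factors that reset them, and HSP90 takes over late folding steps of kinases and steroid receptors. In the mitochondrial matrix, HSP60 and its lid HSP10 form a folding chamber for imported proteins. Heat shock factor 1 (HSF1) raises the transcription of many of these genes under stress, and adipocytes, like other cells, also express several of them without stress. The 10 genes described here were Hspa1a, Hspa1b, Hspa8, Hsp90aa1, Hsph1, Hspb1, Dnajb1, Bag3, Hspd1 and Hspe1, taken by gene name from the 55039 genes of the deposited count and FPKM tables. All 10 were listed once, and all 10 passed the filter on low counts that left 17296 genes.

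The libraries came from eWAT, the epididymal depot of white fat, of male C57BL/6 mice that entered the study at 6 to 7 weeks of age. The cancer-associated cachexia group (CAC, 3 mice) received 5000000 Lewis lung carcinoma (LLC) cells, a mouse lung tumor line, under the skin, and the control group (CONT, 3 mice) received PBS alone. The tissue was taken 28 days later, and 1 poly(A) library was made per mouse. The model is a single transplanted tumor line, and the body weights of the sequenced mice were not analysed here.

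The libraries held 15713794 to 25926425 counts, and the shallowest CAC library was deeper than the deepest CONT library. CONT replicate 1 stood apart, with 30.2% of its counts on the mitochondrial genome (95% Wilson interval 30.1 to 30.2%, counting error only) against 3.89% to 5.04% in the other 5. The adipocyte markers summed to 10439 to 25402 FPKM over all libraries, and none of the 10 was at 0 in all 6 libraries. That sum was 25402 FPKM in CONT replicate 1, 10439 and 12400 FPKM in CONT replicates 2 and 3, and 22903 to 25258 FPKM in CAC. Of it, Cfd alone had 15685 FPKM in CONT replicate 1 and 5586 and 6799 FPKM in CONT replicates 2 and 3. In CAC, Cfd had 12970 to 19601 FPKM. By log2 fold change (CAC over CONT), 4 of the 10 adipocyte markers were higher and 6 lower, with a median of -0.24. The part of adipocyte RNA in the results below was not tested. CONT replicate 2 and CAC replicate 3 also held transcripts of testis germ cells, and CONT replicate 3 held those of the epididymis (summed marker level 5680 FPKM against 0.0590 to 116 FPKM elsewhere). Neutrophil markers summed to 183 to 1399 FPKM in CAC and 3.86 to 62.1 FPKM in CONT. In bulk tissue, fewer cells of a type and less RNA per cell cannot be told apart. Values without CONT replicate 1, without CONT replicate 3, and without CONT replicate 2 and CAC replicate 3 together are given for the members and lists with the larger shifts.

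HSF1 binds as a trimer to inverted repeats of the letters GAA, so the upstream stretches of the members were read for such repeats. RefSeq windows (build GRCm38.p6) were present for 8 of the 10 members, and Hspa8 and Hsp90aa1 had none in the table. These 8 genes had 11 windows, since Hsph1, Dnajb1 and Hspd1 have more than 1 listed start. In the 250 bases before the start, 7 of the 11 windows, from 6 of the 8 genes, held at least 1 inverted pair, spelled GAANNTTC or TTCNNGAA (each letter string is its own reverse complement, and the strings may overlap). Of all 32851 windows, 12.8% held such a pair. The window before the outer start of Hspd1 held none, and the one before its inner start did. The 3-unit forms GAANNTTCNNGAA and TTCNNGAANNTTC, which are reverse complements of each other, were in 0.466% of all windows and, among the members, only in the stretch shared by Hspd1 and Hspe1. That stretch is shown because these neighbouring genes of the HSP60 chamber are read in opposite directions from it. It lies on chromosome 1, and its run of 4 units begins 89 bases before the RefSeq start of Hspe1. It also falls inside the longer Hspd1 transcript, whose start at 55088243 is 95 bases past the Hspe1 start. The sequences are written 5′ to 3′, with the GAA and TTC units of the pairs in capitals. The remaining stretches, the last 130 bases before the start, are those of the near-identical genes Hspa1a and Hspa1b and of Hspb1, which are shown because they carry the same pair of units while the genes differed in how their levels varied over the libraries.
Hspe1 and Hspd1, chr1:55088053-55088082, plus strand: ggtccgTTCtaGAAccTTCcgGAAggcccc
Hspa1a, chr17:34972157-34972286, minus strand: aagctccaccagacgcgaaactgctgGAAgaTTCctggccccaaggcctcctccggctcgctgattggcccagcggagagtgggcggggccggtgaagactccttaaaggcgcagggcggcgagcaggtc
Hspa1b, chr17:34959239-34959368, minus strand: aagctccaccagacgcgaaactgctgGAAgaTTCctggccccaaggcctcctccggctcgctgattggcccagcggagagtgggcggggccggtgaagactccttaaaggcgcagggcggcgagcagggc
Hspb1, chr5:135887789-135887918, plus strand: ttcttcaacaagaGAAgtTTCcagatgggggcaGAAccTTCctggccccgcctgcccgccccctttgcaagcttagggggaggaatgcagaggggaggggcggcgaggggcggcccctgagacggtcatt

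Hspa1a and Hspa1b had the same base at 247 of the 250 upstream positions, and at 129 of the 130 printed. Their pair starts 104 bases before the start site, those of Hspb1 at 117 and 97 bases, and that of Hsph1 at 33 bases before its more distal RefSeq start, inside the longer span that the annotation gives this gene (minus strand of chromosome 5, 149614287 to 149636376). No pair was found in the windows of Dnajb1 and Bag3, which says only that these letters are not in those windows. A match of letters is a description of sequence and no evidence of binding in these samples.

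Per length, the members spanned about 2 orders of magnitude. Hspa8, the constitutive cytosolic HSP70, was the most abundant at a mean of 167 FPKM over the 6 libraries (lowest 103, highest 278 FPKM). Hspb1 (the small heat shock protein HSP25 of mouse) followed at 86.8 FPKM, Hspd1 (HSP60) at 81.7, Hspe1 (HSP10) at 59.3 and Hsp90aa1 (the inducible form of cytosolic HSP90) at 51.0 FPKM. The ranges of neighbours in this order overlapped from Hspa8 down to Hsp90aa1. A step without overlap came next, to Bag3, a cochaperone that links HSP70 to selective autophagy, at 22.7 FPKM (16.1 to 27.9). Dnajb1, the J-domain partner of cytosolic HSP70, had 13.4 FPKM, with a range that overlapped that of Bag3. The stress-inducible HSP70 genes were far lower, at 4.55 FPKM for Hspa1b and 1.59 FPKM for Hspa1a, and Hsph1, an HSP110 exchange factor for HSP70, lay between them at 3.15 FPKM. Hspa1b did not overlap Dnajb1, while neighbours among these last 3 genes overlapped. The levels of several members depend on how reads of copies were assigned. Of the 100-base windows of the longest annotated transcript, 62.8% in Hspa8, 49.9% in Hspa1b, 48.6% in Hspa1a, 47.5% in Hsp90aa1, 42.7% in Hspb1, 26.9% in Hspd1 and 20.4% in Hspe1 also occurred in transcripts of other genes, and none in Hsph1, Dnajb1 or Bag3. For Hspa8, Hsp90aa1 and Hspd1 these other genes held few reads, with 218, 490 and 881 in all 6 libraries beside 117725, 32170 and 36346 for the members.

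**Figure D1:**
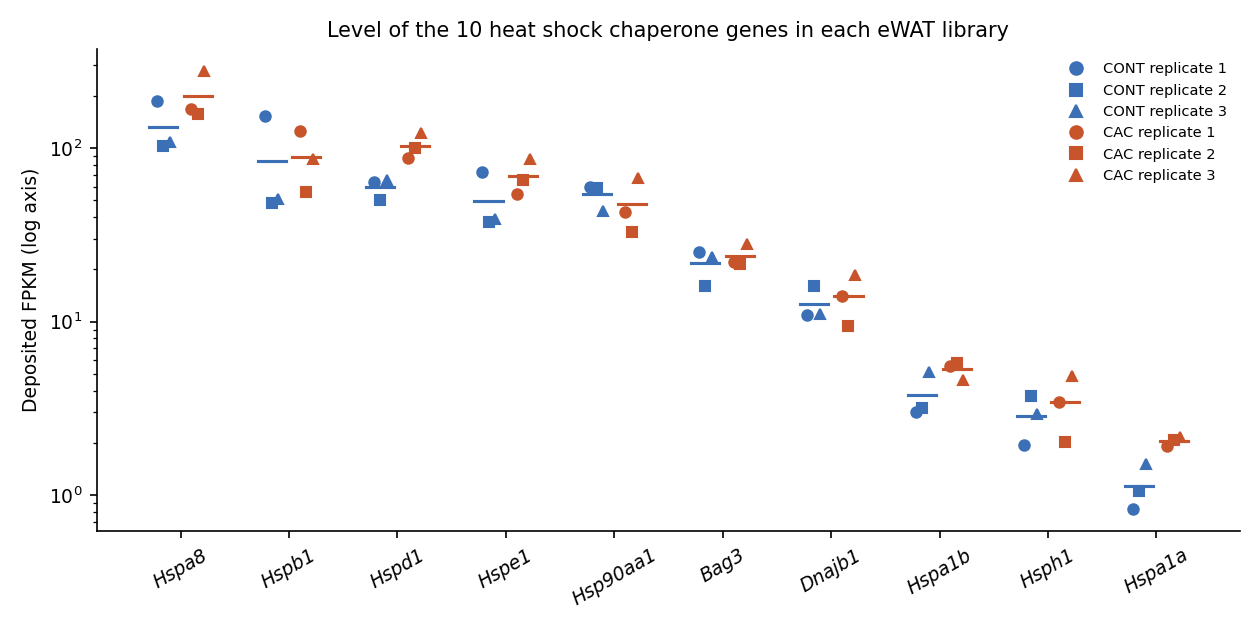
Deposited FPKM (log axis) of the 10 genes in each library, blue for CONT and orange for CAC, with symbols for replicates 1 to 3 and a line at each group's mean. Hspd1 and Hspa1a are the genes whose CAC points all lie above all CONT points, and CONT replicate 1 has the highest Hspb1 point at 154 FPKM.

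In CAC, 9 of the 10 members were higher than in CONT and Hsp90aa1 was lower, but none passed the test. By edgeR's quasi-likelihood test (TMM normalization, Benjamini-Hochberg adjustment over 17296 genes), 0 members had an adjusted p under 0.05, and 0 of all genes (0%) had one. At an unadjusted p under 0.05 there was 1 member, Hspd1, where 13.3% of all genes tested reached that level, 6.31% on the higher and 6.95% on the lower side. In Hspd1 and Hspa1a the lowest CAC value exceeded the highest CONT value. Of all genes, 22.5% had groups without overlap, 11.8% with CAC higher. The median log2 fold change of the members was 0.34, beside -0.06 over all genes tested, of which 45.9% were above 0. With 3 mice a group, an exact two-sided permutation test of a single value cannot go below p = 0.1. Together the members took 0.141% to 0.151% of the counts in CONT and 0.176% to 0.274% in CAC. But without the mitochondrial genome the shares overlapped, at 0.148% to 0.201% in CONT and 0.185% to 0.288% in CAC. Of all counts, Hspa8 alone took 0.0627% to 0.0707% in CONT and 0.0857% to 0.150% in CAC.

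The mitochondrial chamber genes held the member with the smallest p. Hspd1 lies on the minus strand of chromosome 1 from 55077835 to 55088243 (GRCm38) and overlaps Hspe1, on the plus strand from 55088132 to 55091307, by 112 bases. Hspd1 had 208, 167 and 214 CPM in CONT replicates 1 to 3 and 283, 326 and 396 CPM in CAC replicates 1 to 3, where CPM is the depth-scaled count on the TMM-adjusted library total. The groups did not overlap, and the gap from the highest CONT to the lowest CAC library was larger than the range within CONT. The log2 fold change was 0.77 (standard error, SE, 0.23, unadjusted p = 0.0136, adjusted p = 0.283 by edgeR). DESeq2, the tool of the study, gave an adjusted p of 0.0263 for the same 6 libraries, where 2.91% of the genes it tested passed (1.67% on the higher side, and 9.73% had an unadjusted p under 0.05), and voom with sample quality weights gave 0.0493. The value was smaller without the libraries that held germ cell transcripts. Without CONT replicate 2 and CAC replicate 3 together the log2 fold change was 0.53 (unadjusted p = 0.200). It was 0.64 without CAC replicate 3 alone (unadjusted p = 0.0503) and 0.67 without CONT replicate 2 alone (unadjusted p = 0.0609).

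Hspe1, the partner of Hspd1 across the shared stretch, had 132, 69.6 and 72.0 CPM in the CONT libraries and 97.3, 119 and 157 CPM in the CAC libraries. CONT replicate 1 lay inside the CAC range, and the other CONT libraries lay below it. The log2 fold change was 0.45 (SE 0.32, adjusted p = 0.565 by edgeR). Without CONT replicate 1 it was 0.83 (unadjusted p = 0.0176, a level that 15.6% of all genes reached in that fit, 7.3% on the higher side), and without CONT replicate 2 and CAC replicate 3 it was 0.09. Within a library, the ratio of Hspe1 to Hspd1 in FPKM was 1.13 in CONT replicate 1, 0.748 and 0.602 in the other CONT libraries and 0.615 to 0.711 in CAC. The ratio did not separate the groups, and its highest value was in the library with the large mitochondrial share.

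Of the cytosolic HSP70 genes, Hspa1a (minus strand of chromosome 17, 34969190 to 34972156) had 3.03, 3.90 and 5.61 CPM in CONT and 6.90, 7.63 and 7.85 CPM in CAC, on 34 to 208 reads a library. The groups did not overlap. The log2 fold change was 0.83, the largest of the members (SE 0.35, unadjusted p = 0.0523, adjusted p = 0.379 by edgeR). Hspa1b (same strand, 34956436 to 34959238) had 10.3, 11.2 and 17.9 CPM in CONT and 18.9, 20.1 and 15.9 CPM in CAC, so CAC replicate 3 fell below CONT replicate 3. Its log2 fold change was 0.47 (SE 0.28, unadjusted p = 0.142, adjusted p = 0.496). Both genes were highest in CONT replicate 3 among the CONT libraries, the one with epididymis transcripts. Without it the log2 fold changes were 1.12 for Hspa1a (SE 0.40, unadjusted p = 0.0375) and 0.78 for Hspa1b (SE 0.26, unadjusted p = 0.0271), each with an adjusted p of 0.535. The part of epididymis RNA in these values was not tested. The share of all genes at an unadjusted p under 0.05 in that fit was not computed. Because the pair shares so much sequence, the counts were also summed and tested as 1 gene, with a log2 fold change of 0.57 (SE 0.26, adjusted p = 0.412). The FPKM ratio of Hspa1a to Hspa1b was 0.277 to 0.330 in CONT and 0.344 to 0.468 in CAC without overlap, on counts whose split between the copies is uncertain.

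Hspa8 (plus strand of chromosome 9, 40800984 to 40810087) had 991, 555 and 585 CPM in the CONT libraries and 880, 833 and 1469 CPM in the CAC libraries. CONT replicate 1 was above CAC replicates 1 and 2, while CONT replicates 2 and 3 were below every CAC library. The log2 fold change was 0.58 (SE 0.37, adjusted p = 0.522 by edgeR), but 0.91 without CONT replicate 1 (unadjusted p = 0.0396), 0.28 without CAC replicate 3, and 0.12 without CONT replicate 2 and CAC replicate 3 together (unadjusted p = 0.815). Hspa1a and Hspa1b together were 0.0205 to 0.0610 of the Hspa8 level per length in CONT and 0.0243 to 0.0502 in CAC. This ratio to Hspa8 overlapped between the groups.

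Hsp90aa1 and the HSP70 partners Hsph1 and Dnajb1 overlapped between the groups, with a wider spread within CAC than between the group means. Hsph1 had 17.3, 34.1 and 26.4 CPM in CONT and 30.4, 18.0 and 43.1 CPM in CAC. Dnajb1 had 43.1, 64.6 and 44.2 CPM in CONT and 55.0, 37.1 and 73.3 CPM in CAC. Hsp90aa1 had 289, 290 and 214 CPM in CONT and 205, 159 and 326 CPM in CAC. For each of these 3 genes, CONT replicate 2 and CAC replicate 3 were the highest of the 6 libraries, though for Hsp90aa1 CONT replicate 1 was within 1 CPM of CONT replicate 2. The log2 fold changes were 0.23 (SE 0.39) for Hsph1, 0.12 (0.30) for Dnajb1 and -0.20 (0.32) for Hsp90aa1, with adjusted p by edgeR of 0.826, 0.891 and 0.818. The Hsp90aa1 to Hsp90ab1 ratio, inducible to constitutive cytosolic HSP90, was 0.162 to 0.292 in CONT and 0.114 to 0.197 in CAC in FPKM, with overlap. Hsp90ab1 itself had a log2 fold change of 0.21 (SE 0.29, adjusted p = 0.785).

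The libraries in which these 3 members were highest were those with germ cell transcripts. Prm1, a protamine of spermatids, had 222 CPM in CONT replicate 2 and 301 CPM in CAC replicate 3, and at most 3.21 CPM in the other 4. The whole germ cell list (6 genes, of which Hspa1l is also in the HSP70 list) summed to 1189 and 1580 FPKM in those libraries and to 0.444 to 15.7 FPKM in the rest. Other chaperones stood higher there by more: Hspa2, an HSP70 known from spermatocytes, had 80.1 and 90.2 CPM against at most 23.5 CPM, Hspa1l had 13.1 and 16.3 CPM against 0.535 to 1.94 CPM, and Hspa4l, an HSP110 protein, had 71.5 and 77.6 CPM against 16.5 to 28.03 CPM. Both libraries ranked highest for 3 of the 10 members, 9 of 80 other chaperone genes (11.2%) and 8.96% of all genes tested. The part of germ cell RNA in the levels of Hsph1, Dnajb1 and Hsp90aa1 was not tested. With both libraries left out, their log2 fold changes were 0.14, 0.08 and -0.46, 7 of 10 members were above 0, the median was 0.10, and 0 members had an unadjusted p under 0.05, where 5% of all genes did (2.17% on the higher side).

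**Figure D2:**
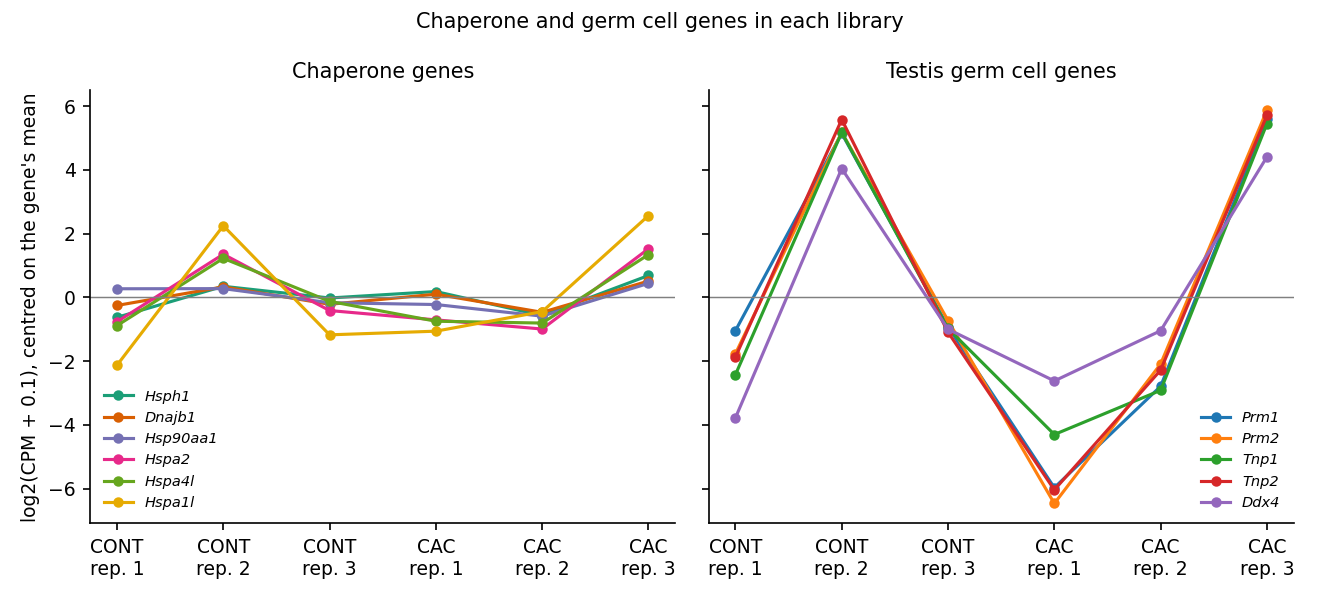
Levels of chaperone genes (left) and testis germ cell genes (right) in the 6 libraries, as log2(CPM + 0.1) centred on each gene's mean, with lines that only join the points of a gene. CONT replicate 2 and CAC replicate 3 are high for all 5 germ cell genes and, by a smaller step, for Hspa2, Hspa4l, Hspa1l, Hsph1 and Dnajb1.

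Hspb1, an ATP-independent holdase that keeps unfolded clients soluble, varied more within the groups than between them. It had 196, 62.1 and 65.5 CPM in CONT and 156, 70.8 and 109 CPM in CAC. The highest value was in CONT replicate 1 and the remaining CONT libraries were the lowest of the 6. The log2 fold change was 0.06 (SE 0.53, adjusted p = 0.976 by edgeR) with all libraries and 0.83 (SE 0.36, unadjusted p = 0.0734) without CONT replicate 1. Its listed length of 1031 bases is the shortest of the members, followed by Hspe1 with 1474 bases, and both were higher in CONT replicate 1 than in the other CONT libraries, as were Bag3 with 2562 and Hspa8 with 4301 bases. Whether RNA quality or the mitochondrial share of that library had a part in this was not tested. Bag3 had the smallest SE of the members, with 79.9, 51.8 and 75.3 CPM in CONT and 68.7, 67.5 and 87.7 CPM in CAC (log2 fold change 0.11, SE 0.23, adjusted p = 0.863), and its groups overlapped. Its direction turned without CONT replicate 2 and CAC replicate 3, to -0.19.

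**Figure D3:**
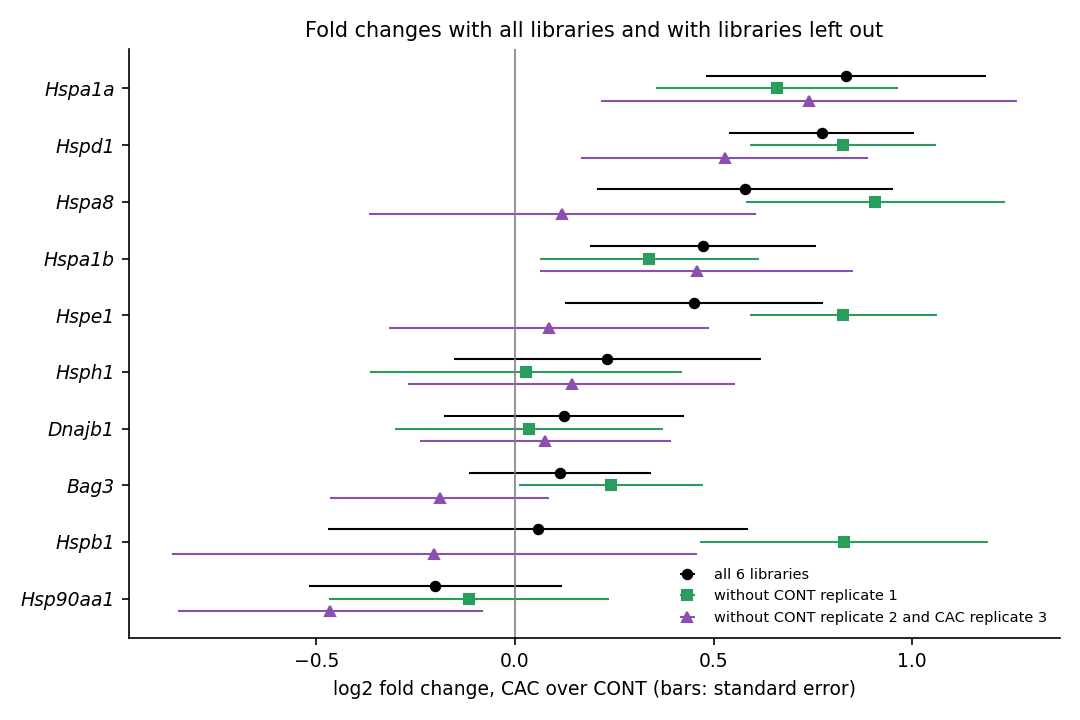
Log2 fold change of each member, CAC over CONT, with standard errors from edgeR's quasi-likelihood fit, for all 6 libraries (black circles), without CONT replicate 1 (green squares) and without CONT replicate 2 and CAC replicate 3 (purple triangles). Hspe1, Hspa8 and Hspb1 move most between these fits, with Hspb1 at 0.06, 0.83 and -0.20, while Hspa1a and Hspd1 stay above 0.5 in all 3.

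The members did not share a single profile over the mice. CAC replicate 3 was the highest library for 8 of the 10 members, where it was the highest for 18.8% of all genes tested, and it also had the highest neutrophil marker sum at 1399 FPKM. Hspb1 was highest in CONT replicate 1 and Hspa1b in CAC replicate 2. CONT replicate 2 was lowest for 5 members, CONT replicate 1 for 3 and CAC replicate 2 for 2. Of all genes tested, these libraries were lowest for 12.2%, 32.6% and 12.5%, in the same order. The part of neutrophil or germ cell RNA in the high values of CAC replicate 3 was not tested. Averaged over the members, log2 CPM centred on each gene's mean was -0.06, -0.29 and -0.19 in CONT and 0.14, -0.08 and 0.47 in CAC, so CAC replicate 2 was about level with CONT replicate 1. Among 10400 genes with a mean log2 CPM of at least 3, the non-members closest to this average by root mean square difference over the 6 libraries were Ubap1 (0.0192), Ghitm (0.0493), Mto1 (0.0531), Eif2s2 (0.0629) and Prkar1a (0.0698). The members lay at 0.191 (Bag3) to 0.566 (Hspb1) from this average. The non-members named were picked as the nearest, so their values cannot be compared with those of the members.

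Around the members, 80 other chaperone genes from lists of families and cochaperones were tested. In CAC, 54 of them were higher and 26 lower, and their median log2 fold change was 0.14. By edgeR no gene had an adjusted p under 0.05. At an unadjusted p under 0.05, 8 were higher and 3 lower, 11 in all of 80, where 13.3% of all genes reached that level. Without CONT replicate 1 there were 13 higher and 3 lower (15.6% of all genes), and without CONT replicate 2 and CAC replicate 3 there were 2 higher and 1 lower (5% of all genes). In that last fit 45 of the 80 were higher and their median was 0.023. With all 6 libraries, DESeq2 passed 7 of the 80 as higher and 1 as lower at an adjusted p under 0.05. Of the genes it tested, 2.91% passed, 1.67% on the higher side.

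The mitochondrial list holds chaperones and proteases of the matrix and inner membrane. It had the most genes at an unadjusted p under 0.05 of any chaperone list. Of its 18 genes, Hspd1 and Hspe1 among them, 15 were higher and 3 lower, the median was 0.38, and 5 were higher at an unadjusted p under 0.05 with 0 lower, where 6.31% of all genes were higher at that level. In 7 of the 18 the groups did not overlap, with CAC higher, as in 11.8% of all genes. Hspa9, the mitochondrial HSP70 that pulls proteins in through the import channel, had 417, 328 and 358 CPM in CONT and 530, 846 and 1021 CPM in CAC, a log2 fold change of 1.12 (SE 0.31, adjusted p = 0.273 by edgeR). Grpel1, the exchange factor of that HSP70, had a log2 fold change of 0.92 (SE 0.23, adjusted p = 0.250), and its J-domain partner Dnaja3 one of 0.66 (SE 0.18, adjusted p = 0.266). Afg3l2, a protease of the inner membrane, had 1.04 (SE 0.28, adjusted p = 0.266). These genes, like Hspd1, had CAC libraries that did not overlap the CONT libraries. Without CONT replicate 2 and CAC replicate 3, the median of the list was 0.24 and 1 gene was higher at an unadjusted p under 0.05, where 2.17% of all genes were. Without CONT replicate 1 there were 9, where 7.3% of all genes were higher at that level. With all 6 libraries, DESeq2 passed 5 of the 18 at an adjusted p under 0.05, all higher. Of the genes it tested, 1.67% passed as higher.

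The other lists were mixed. The cytosolic HSP70 list had 5 of 8 genes higher at a median of 0.21, and this median did not keep its direction, with -0.20 without CONT replicate 1, -0.15 without CONT replicate 3, -0.46 without CAC replicate 3 and -0.58 in voom with sample quality weights. The J-domain list, which spans compartments and shares Dnaja3 with the mitochondrial list, had 13 of 19 genes higher, a median of 0.17 and 4 genes at an unadjusted p under 0.05, all higher, as were 6.31% of all genes. These were Dnaja3, already counted above, Dnaja2, Dnajb12 and Dnajb6. Without CONT replicate 2 and CAC replicate 3 there were 0 at that level (5% of all genes), with 13 of 19 higher at a median of 0.11, and without CONT replicate 1 there were 4 higher and 1 lower, Dnaja4 (15.6% of all genes). The median was 0.043 without CAC replicate 3 alone and 0.070 without CONT replicate 3 alone. Dnajb6, which suppresses aggregation, was at 0.71 (log2 fold change, SE 0.19, adjusted p = 0.265). The chaperonin TRiC, which folds actin and tubulin, had 7 of 8 genes higher at a median of 0.33 and none at an unadjusted p under 0.05, but 4 of 8 higher at a median of 0.047 without CONT replicate 2 and CAC replicate 3. Among the HSP90 cochaperones, 11 of 14 were higher at a median of 0.06, but 7 of 14 without CONT replicate 2 and CAC replicate 3, and the median was 0.22 without CONT replicate 1. Fkbp5 stood far from the rest of this list. It encodes a partner of steroid receptors and is a known target of the glucocorticoid receptor. Fkbp5 had 120, 88.9 and 136 CPM in CONT and 663, 606 and 622 CPM in CAC, a log2 fold change of 2.45 (SE 0.25, adjusted p = 0.127). The BAG and other HSP70 cochaperones had 6 of 9 genes higher at a median of 0.11, which was -0.064 in voom. The HSP110 list had 2 of 3 higher. Neither list had a gene at an unadjusted p under 0.05. By DESeq2, 3 of the 19 J-domain genes and 1 of the 14 HSP90 cochaperones passed an adjusted p of 0.05, all higher. No gene of the cytosolic HSP70, TRiC, BAG or HSP110 lists did. Of the genes DESeq2 tested, 2.91% passed, 1.67% on the higher side.

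Some chaperones were lower. Cryab, the small heat shock protein αB-crystallin, had 115, 73.5 and 56.9 CPM in CONT and 30.4, 9.57 and 6.004 CPM in CAC, a log2 fold change of -2.42 (SE 0.65, adjusted p = 0.266 by edgeR). Hspb2, another member of that family, had 1.96 to 2.21 CPM in CONT and 0.717 to 0.986 CPM in CAC (log2 fold change -1.36, SE 0.40, adjusted p = 0.283). In both genes the highest CAC value was below the lowest CONT value, as in 10.7% of all genes. The other small heat shock proteins tested, Hspb1 included, overlapped between the groups. Of this family, DESeq2 passed 1 gene at an adjusted p under 0.05, as lower, where 2.91% of the genes it tested passed. Hspa14, an HSP70 that works at the ribosome, was lower with a log2 fold change of -0.65 (SE 0.22, adjusted p = 0.312). Of the 7 fibroblast and progenitor markers, 6 were also lower, 4 of them without overlap, while Dcn was higher without overlap (log2 fold change 0.60, SE 0.27). None was at 0 in every library, and their summed level overlapped, at 181 to 258 FPKM in CAC and 231 to 272 FPKM in CONT. Skeletal muscle markers, of which 3 of 6 were higher and 3 lower and none was at 0 in every library, summed to 17.1 to 54.0 FPKM in CONT and to 36.5, 6.23 and 5.39 FPKM in CAC. Of these, Myl1, a myosin light chain, had 76.0, 39.1 and 31.1 CPM in CONT and 31.2, 4.76 and 2.53 CPM in CAC. It was high and low in nearly the same libraries as Cryab, but its list did not move together. Myh4 was higher in CAC without overlap, at low levels (log2 fold change 2.35, SE 0.88, unadjusted p = 0.0332 by edgeR). Ckm and Tnnt3 also had log2 fold changes above 0 (1.26 and 0.55), and Acta1 and Mylpf below 0 (-0.09 and -0.38). The part of fibroblast or muscle RNA in the lower values of Cryab, Hspb2 and Hspa14 was not tested.

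Genes known as HSF1 targets went in both directions. Of 25 in the list, which holds all 10 members, 16 were higher and 9 lower and the median was 0.11, but without CONT replicate 2 and CAC replicate 3 only 10 were higher and the median was -0.15, and without CONT replicate 1 the median was 0.22, with 4 higher and 2 lower at an unadjusted p under 0.05 (15.6% of all genes). With all 6 libraries, at an unadjusted p under 0.05 there were 1 higher (Hspd1) and 2 lower (Cryab and Serpinh1), where 6.31% of all genes were higher and 6.95% lower at that level. Serpinh1, the collagen chaperone HSP47, had a log2 fold change of -1.43 (SE 0.40, adjusted p = 0.273 by edgeR). DESeq2 passed 1 of the 25 as higher and 2 as lower at an adjusted p under 0.05. Of the genes it tested, 2.91% passed. Hsf1 itself had 35.8, 25.8 and 26.4 CPM in CONT and 36.1, 29.9 and 32.96 CPM in CAC (log2 fold change 0.17, SE 0.20, adjusted p = 0.740), and Hsf2 had a log2 fold change of -0.27 (SE 0.33, adjusted p = 0.753). The mRNA level of a heat shock factor does not measure its activity. Immediate early genes, which respond within minutes to handling and stress, summed to 99.8 to 187 FPKM in CONT and 127 to 185 FPKM in CAC with overlap, and had 5 of 10 genes higher and 5 lower. Of these, 2 had an unadjusted p under 0.05, Egr1 and Fosb, both lower in CAC, and none of the 10 was at 0 in all libraries.

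**Figure D4:**
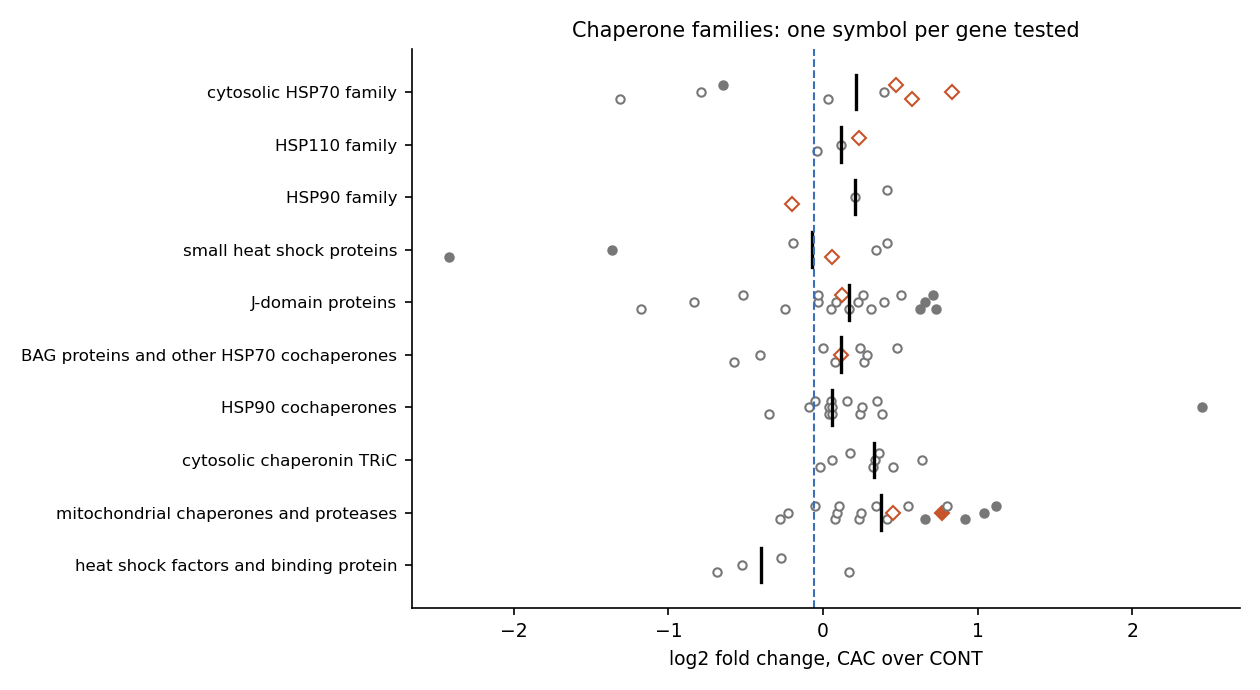
Log2 fold change (CAC over CONT) of each chaperone gene tested, in rows by family, with diamonds for the 10 members, circles for other genes, filled symbols for an unadjusted p under 0.05, black bars for each family's median and a dashed line for the median of all genes. Filled symbols on the higher side gather in the mitochondrial and J-domain rows, and Fkbp5 (2.45) and Cryab (-2.42) are the far points.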

How the data were processed

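The authors cleaned the reads with in-house scripts and used HISAT2 2.0.5 with the mouse reference of Ensembl (release 94, GRCm38), and the submitters' processing notes also name featureCounts 1.5.0-p3. Whether counting used the strand is not given in the sources used here. The deposited counts are whole reads per gene without normalization. The deposited FPKM values are those counts divided by the listed gene length and by 1 total per library, which was 0.879 of the summed counts in CONT replicate 1 and 1.18 to 1.44 times them elsewhere. The 507 assembled loci without an Ensembl identifier took 0.0981% to 0.639% of the counts and were kept.

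Counts were tested in R 4.3.3 with edgeR 4.0.16 (quasi-likelihood, robust, TMM, edgeR's filter by group) with condition as the only term, and with limma 3.58.1 and DESeq2 1.42.0 as alternatives. Standard errors are the absolute log2 fold change over the square root of F. CPM are on the TMM-adjusted total, and 1 CPM stood for 11.2 to 26.5 reads. No 2 libraries of a group were copies (their counts differed by a chi-square of 66.7 to 398 for each degree of freedom).

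The members and lists were chosen with earlier results of these data known, so no p adjusted over a list and no list test is given. Named are the 10 members, up to 2 genes per direction and chaperone list with the smallest unadjusted p under 0.05, Hsf1, Hsf2, Hsp90ab1 and Hspa9, and the 5 genes nearest to the members' mean profile. Prm1, Hspa2, Hspa1l, Hspa4l, Egr1, Fosb, Dcn, Dnaja2, Dnaja4, Dnajb12 and Myl1 were named after their values were seen. So were Cfd, Myh4, Ckm, Tnnt3, Acta1 and Mylpf.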

Additional observations from a re-analysis of the deposited data

How the results depend on the processing

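With 3 mice a group and a dispersion of 0.265, the fold changes of single members are loosely fixed. By edgeR no member passed an adjusted p of 0.05. Of the members, Hspa1a, Hspa1b, Hspa8, Hspd1 and Hspe1 kept their direction in all 19 alternatives. Hspd1 had an unadjusted p under 0.05 in 16 of the 19, and its adjusted p ran from 0.0263 to 0.824. The labels do not say whether the replicate numbers pair the mice. Correlations of same-numbered deviations were -0.0312, 0.0590 and -0.154, and those of unlike-numbered ones -0.105 to 0.124. With 3 mice a group, these values cannot exclude a pairing. With the replicate number as a block, 1 gene of all passed and 0 members did, and no call on a member changed.

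Genes with an adjusted p under 0.05 numbered 965 in DESeq2, 953 in voom with sample quality weights, 8 in limma on log2(FPKM + 1) and 7 on log2(FPKM + 0.1), and of the members 1 passed in DESeq2 and 1 in voom, Hspd1 in both. Members with an unadjusted p under 0.05 numbered 4 in voom, 2 in DESeq2, with RLE normalization, without mitochondrial-genome genes, with at least 10 counts in every library and in each FPKM fit, and 0 with CONT replicate 2 and CAC replicate 3 left out, an alternative chosen after seeing the data. With each library left out in turn they numbered from 0 (without CONT replicate 2 or CAC replicate 3) to 3 (without CONT replicate 1 or CONT replicate 3). Of all genes, 9.73% reached that level in DESeq2, 15.6% without CONT replicate 1, and 5% without CONT replicate 2 and CAC replicate 3 together. For the other alternatives the share over all genes was not computed, so their counts cannot be set against it.

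Directions turned in 5 members, and the cause was not tested. In voom, Hsph1 was at -0.33 and Dnajb1 at -0.23. With CONT replicate 2 and CAC replicate 3 left out, Hspb1 was at -0.20 and Bag3 at -0.19. With single libraries left out, Hsp90aa1 ran from -0.53 to 0.017, Hsph1 from -0.092 to 0.51, Dnajb1 from -0.13 to 0.35, Hspb1 from -0.24 to 0.83 and Bag3 from -0.052 to 0.24.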
